A study of Mus musculus with 8 samples.

Results

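Cytosolic ribosomal protein genes encode the proteins that, with ribosomal RNA, make up the large and small subunits of the ribosome. They were chosen by symbol, as the genes named Rpl or Rps followed by a number together with Rplp0, Rplp1, Rplp2 and Rpsa. Pseudogene symbols containing -ps and the Rps6k kinases, which phosphorylate Rps6 and other proteins, were left out. The rule found 83 of the 16109 genes in the count table. Of these, 49 were large-subunit symbols, 33 were small-subunit symbols, and 1, Rps19bp1, encodes a protein that binds a ribosomal protein and is not one itself. Rpl7l1 is counted with the large-subunit symbols but is no core ribosomal protein either. Without Rps19bp1 and Rpl7l1, 81 core members remain.

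Ribosomal proteins are needed in nearly equal numbers, and each is built into a subunit in the nucleolus before export. Their mRNAs are among the most abundant of growing cells and usually begin with a terminal oligopyrimidine tract (5′ TOP), through which mTORC1, a growth-sensing kinase, controls their translation. Most of these genes have left many processed pseudogenes in mammalian genomes, intronless copies of the mRNA that can be nearly identical to it.

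The series compared retinal mRNA from C3 deficient and wild-type mice during the growth of the retinal vessels. It holds 4 libraries labelled C3 KO and 4 labelled WT. All were made from retina of C57BL/6 mice at postnatal day 5, freed of the hyaloid vessels, with poly(A) selection and a directional kit. C3 is the complement protein on which all activation routes of that cascade converge. The labels do not describe the targeted C3 allele or give the number of animals behind a library. The p-values therefore measure the spread between these libraries, which may be technical in part. With the WT label it was not wholly so, since Y-linked reads, given below, differed strongly among those libraries.

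The libraries held between 16503564 and 19608824 counted reads each. C3 itself went against the labels, with 1718, 1585, 1550 and 1419 reads in the libraries labelled C3 KO and 52, 45, 33 and 55 in those labelled WT. The log2 fold change of C3 was 5.04 ± 0.10 (SE, edgeR adjusted p = 1.39e-20), so all log2 fold changes and log2 differences below, which are the same quantity, are C3 KO label minus WT label and rest on labels that the C3 counts contradict. The retinal transcription factor Crx averaged 1153 CPM (reads scaled to a common library total) in the libraries labelled C3 KO and 1342 CPM with the WT label, and Nrl, a rod factor, 1436 and 1604 CPM. The mean of 4 Y-linked genes ran from 74.5 to 88.8 CPM with the C3 KO label and was 0.446, 5.04, 76.1 and 3.73 CPM with the WT label, where replicate 3 stood apart from the other 3.

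The start regions of the members that carry the results below are shown because the TOP tract lies there. Each line gives 30 bases of the RefSeq promoter table for GRCm38.p6, from 10 bases before the annotated start to 20 from it, on the gene's own strand. A run is a C followed by at least 4 bases that are each C or T, with its C within 10 bases of the annotated start. Capitals mark the longest run of a window, searched on that strand alone.
Rps3a: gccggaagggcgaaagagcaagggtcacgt
Rps7: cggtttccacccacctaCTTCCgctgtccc
Rps15a: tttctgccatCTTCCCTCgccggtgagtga
Rps27: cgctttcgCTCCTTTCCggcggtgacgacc
Rpl4: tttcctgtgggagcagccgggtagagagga
The windows lie at chr3:86142649-86142678 for Rps3a, chr12:28635934-28635963 for Rps7, chr7:118116128-118116157 for Rps15a and chr3:90213629-90213658 for Rps27, all on the minus strand, and at chr9:64173377-64173406 on the plus strand for Rpl4. The marked run of Rps15a starts exactly at the annotated start, that of Rps27 starts 2 bases before it and that of Rps7 starts 7 bases after it. No run was found in the windows of Rps3a and Rpl4. Of 81 core members, 60 had an entry in that table and 37 of these, or 61.67%, held such a run, compared with 34.4% of all genes in the table. A run is a match of letters near an annotated start and was not measured as a TOP tract.

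All 83 members passed the expression filter, and as a family they stood at nearly the same level under both labels. In edgeR's quasi-likelihood test, 4 of 83 members were higher in the libraries labelled C3 KO at an adjusted p under 0.05, a share of 4.82%, and 0 were lower. Among all 15850 tested genes 14.3% were called, 8.33% higher and 5.98% lower. The members' share was not above that background. The log2 fold change was positive for 52 members and negative for 31, with a median of 0.03 compared with 0.00 over all tested genes. It lay within 0.1 of 0 for 48 members and within 0.25 for 78. At an unadjusted p under 0.05, 14 members were higher and 1, Rpl37, was lower, a threshold at which 15.4% of all tested genes were higher and 13.3% lower. The 14 of 83 were near that background. DESeq2, which called 15.6% of all genes, 8.67% higher and 6.95% lower, called 1 member lower, again Rpl37. The limma-voom test, which called 13.9%, 8.14% higher and 5.81% lower, called 0 members lower. In whole tissue, fewer cells of a type cannot be told apart from less RNA per cell.

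The share of all reads that fell on members was 0.966%, 0.835%, 0.888% and 0.926% in the libraries labelled C3 KO and 0.890%, 0.906%, 0.911% and 0.816% in those labelled WT. The groups overlapped, with means of 0.904% ± 0.0555 and 0.881% ± 0.0439 (SD, n = 4 each). The ratio of large-subunit to small-subunit reads ran from 1.13 to 1.18 in the libraries labelled C3 KO and from 1.12 to 1.20 in those labelled WT, so the balance of the subunits overlapped too.

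The level of the family varied more between libraries of 1 label than between the labels. In the library labelled C3 KO replicate 1, 44 of 49 large-subunit and 29 of 33 small-subunit members lay above their own mean over the 8 libraries, with medians of 0.12 and 0.12 on the log2 scale. In the library labelled WT replicate 4, 6 of 49 and 2 of 33 did, with medians of -0.15 and -0.17. Large and small subunits thus shifted together from library to library. In the library labelled C3 KO replicate 2 the medians were -0.07 for both subunits, and 8 large-subunit and 11 small-subunit members lay above their mean.

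**Figure D1:**
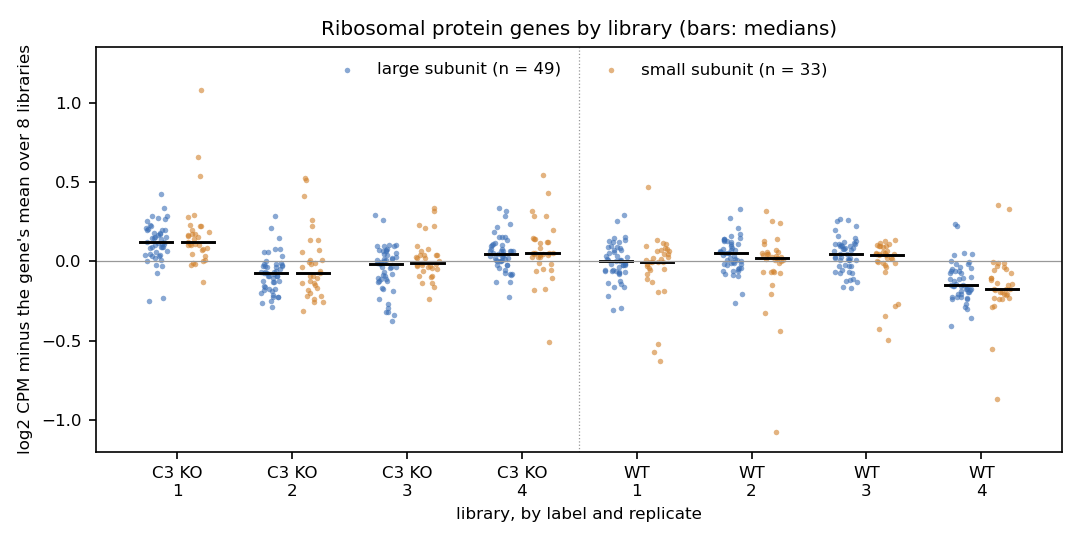
Each point is 1 ribosomal protein gene in 1 library, placed at its log2 CPM minus its own mean over the 8 libraries, with large-subunit genes in blue, small-subunit genes in orange and black bars for medians. The highest medians are in the library labelled C3 KO replicate 1 (0.12) and the lowest in that labelled WT replicate 4 (-0.15 and -0.17), and within each library the subunits lie close together.

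Large-subunit members stood at a median log2 fold change of 0.03 and ranged from -0.30 to 0.25. Of the 49, 0 were called in either direction in edgeR, while 6 were higher and 1 lower at an unadjusted p under 0.05, beside 15.4% and 13.3% of all genes. The 4 members with the highest deposited RPKM (reads scaled to library size and a gene length) were on this side of the ribosome. Their levels differed little between the labels. Rplp1, a protein of the stalk that recruits translation factors, had the highest RPKM of the family, a mean of 600 RPKM. It had 322, 276, 293 and 298 CPM with the C3 KO label and 312, 308, 301 and 267 CPM with the WT label, with a log2 difference of 0.00 ± 0.05 (SE, edgeR adjusted p = 0.991). Rpl4, whose loop lines the tunnel through which the new protein leaves, averaged 569 RPKM and had a log2 difference of 0.01 ± 0.05 (SE, edgeR adjusted p = 0.903). Rpl8, which sits near the catalytic centre, averaged 547 RPKM and had 0.03 ± 0.05 (SE, edgeR adjusted p = 0.756). Rpl32 averaged 433 RPKM, with 255, 218, 225 and 233 CPM with the C3 KO label and 219, 222, 219 and 198 CPM with the WT label. Its groups overlapped, with a log2 difference of 0.12 ± 0.05 (SE, edgeR adjusted p = 0.134).

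At neither end of the large-subunit range did a member pass the test. Rpl28 had the highest log2 fold change of the subunit, 0.25 ± 0.11 (SE, edgeR adjusted p = 0.145), with 12.2, 11.7, 14.3 and 13.01 CPM with the C3 KO label and 11.2, 9.78, 12.1 and 10.02 CPM with the WT label. Rpl37, a zinc-binding protein, had 13.4, 11.9, 10.8 and 12.3 CPM with the C3 KO label and 13.5, 16.2, 14.5 and 15.7 CPM with the WT label. The groups of Rpl37 did not overlap, although the highest of the first group and the lowest of the second nearly met. Its log2 fold change was -0.30 ± 0.11 (SE), which edgeR did not call (adjusted p = 0.0559) and DESeq2 did (adjusted p = 0.0405). Rpl23a, at the exit of the tunnel, stood at -0.23 ± 0.23 (SE, edgeR adjusted p = 0.551), and Rpl36 at -0.23 ± 0.12 (SE, edgeR adjusted p = 0.213). Both overlapped between the labels.

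Among the other large-subunit members with an unadjusted p under 0.05, none passed the adjusted threshold. Rpl18 had 68.1, 62.1, 66.3 and 67.6 CPM with the C3 KO label and 61.4, 61.9, 59.8 and 56.7 CPM with the WT label, a log2 difference of 0.14 ± 0.06 (SE, edgeR adjusted p = 0.105). Rpl14 had 71.4, 74.4, 72.6 and 75.6 CPM with the C3 KO label and 70.4, 67.5, 62.5 and 69.5 CPM with the WT label, a log2 difference of 0.12 ± 0.06 (SE, edgeR adjusted p = 0.142). Rpl18 and Rpl14 were the only other members besides Rpl37 and the called ones whose groups did not overlap, and they are named here after their values were seen. In all, 7 of 83 members did not overlap, where 17.4% of all tested genes did not. Rplp0, the base of the stalk, named likewise, stood at 0.12 ± 0.05 (SE, edgeR adjusted p = 0.0978) and overlapped.

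Small-subunit members held all 4 calls, 12.1% of the 33, beside 8.33% of all tested genes called higher and 5.98% lower. At an unadjusted p under 0.05, 8 were higher and 0 lower, beside the same 15.4% and 13.3% of all genes. Their median log2 fold change was 0.04 and their range -0.20 to 0.98. Rps15, a protein of the head of the subunit, had its highest RPKM, with a mean of 424 RPKM and a log2 difference of -0.02 ± 0.05 (SE, edgeR adjusted p = 0.867). Whether the subunits differed in their share of calls was not tested.

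Rps3a, a protein of the platform near the exit of the mRNA channel, showed the largest difference of the family. It had 86.7, 73.1, 69.6 and 80.3 CPM with the C3 KO label and 38.3, 40.5, 40.9 and 37.5 CPM with the WT label. Every library labelled C3 KO lay far above every one labelled WT. Its log2 fold change was 0.98 ± 0.07 (SE, edgeR adjusted p = 1.12e-09), a 1.97-fold difference. As described below, that sign turned when the reads of its near copies were added.

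Rps7, which also binds the p53 regulator Mdm2 when free of the ribosome, had 50.3, 41.6, 43.3 and 46.7 CPM with the C3 KO label and 23.3, 31.3, 35.9 and 19.0 CPM with the WT label. The groups did not overlap, and the libraries labelled WT were spread widely. Its log2 fold change was 0.73 ± 0.18 (SE, edgeR adjusted p = 0.0366), a 1.66-fold difference. Leaving out each library in turn ended the call in 6 of 8 fits, all but those without WT replicate 3 or WT replicate 4, and edgeR's adjusted p reached 0.0915. The log2 fold change in those 6 fits was between 0.66 and 0.79, about as large as with all libraries. With the mean Y-linked level as a covariate it stood at 0.38 with an adjusted p of 0.255 in edgeR. Apart from WT replicate 3, that covariate nearly followed the labels, so the fit could hardly separate it from them.

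Rps15a, a protein bound to the RNA of the body of the subunit, differed by far less. It had 139, 115, 118 and 127 CPM with the C3 KO label and 101, 109, 115 and 99.1 CPM with the WT label. The lowest library labelled C3 KO and the library labelled WT replicate 3 nearly met, and the log2 fold change was 0.24 ± 0.06 (SE, edgeR adjusted p = 0.0128). Rps15a was no longer called when C3 KO replicate 1 was left out (edgeR adjusted p = 0.0587), nor when C3 KO replicate 4 (edgeR adjusted p = 0.0529) or WT replicate 4 was (edgeR adjusted p = 0.0528). With the Y-linked covariate the adjusted p of Rps15a was 0.50 in edgeR, under which 3.34% of all genes were called, 2.2% higher and 1.14% lower, and Rps3a was the 1 member still called.

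**Figure D2:**
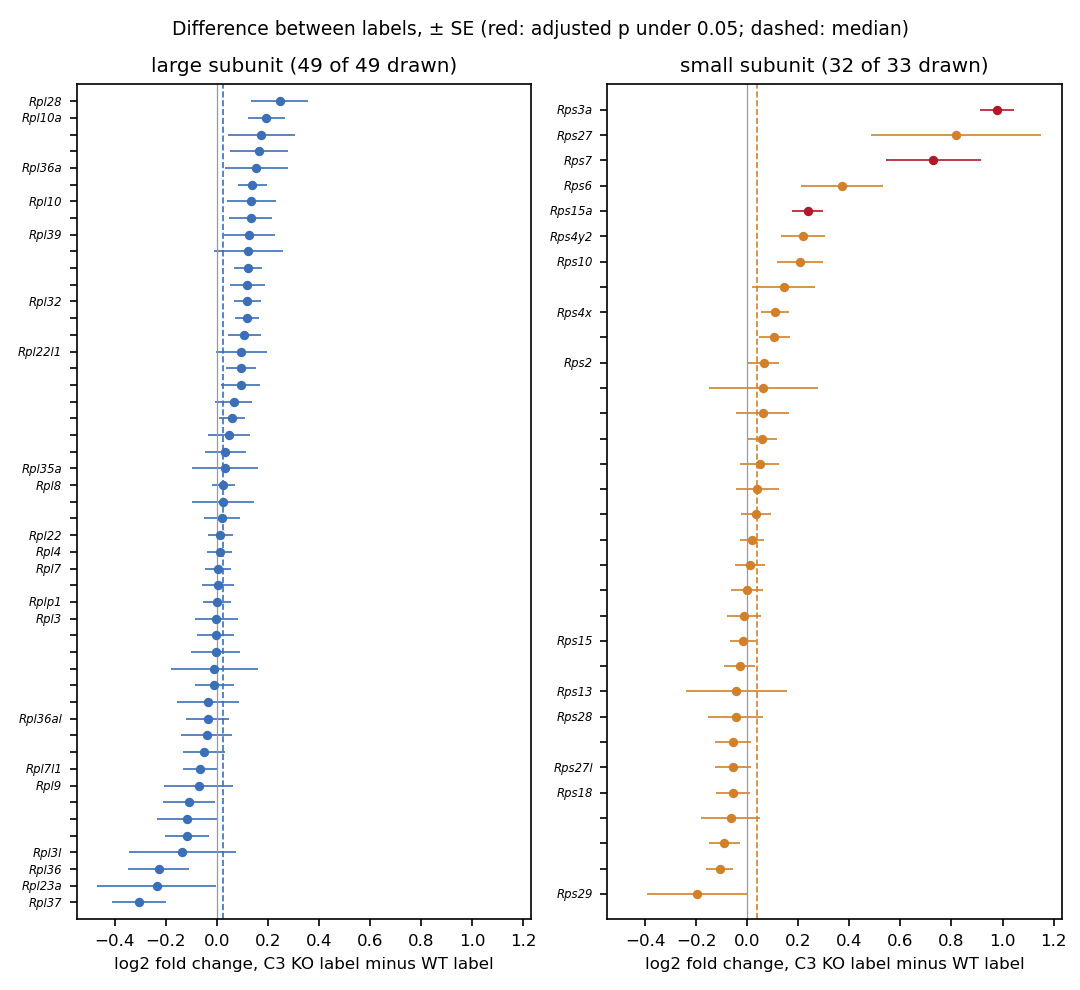
Each point is the log2 fold change of 1 ribosomal protein gene, libraries labelled C3 KO minus those labelled WT, with its SE, large subunit left and small subunit right, ordered by size, with some genes labelled. Red points passed an adjusted p of 0.05 and dashed lines mark the subunit medians of 0.03 and 0.04. Rps3a, Rps27 and Rps7 lie apart from the other small-subunit genes, and no large-subunit gene passed.

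The spread of the family around its median, as a scaled median absolute deviation of the log2 fold changes, was 0.113, compared with 0.182 over all tested genes. Departing members were defined as lying more than 3 such deviations from the family's median, and these were Rps3a, Rps7 and Rps27. Rps27, a zinc-finger protein, had only 56, 37, 28 and 21 reads with the C3 KO label and 17, 11, 21 and 28 reads with the WT label. The groups overlapped at 2.85, 1.93, 1.58 and 1.19 CPM with the C3 KO label and 0.871, 0.640, 1.12 and 1.69 CPM with the WT label. The log2 fold change was 0.82 ± 0.33 (SE, edgeR adjusted p = 0.103). Just inside that limit, at 2.99 deviations above and below the median, lay Rps6 and Rpl37. Rps6, the protein phosphorylated by the S6 kinases below mTORC1, had 5.55, 8.07, 5.25 and 6.82 CPM with the C3 KO label and 5.18, 5.36, 4.41 and 4.95 CPM with the WT label, and 0.37 ± 0.16 (SE, edgeR adjusted p = 0.128).

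Levels between genes were compared as mean RPKM over the 8 libraries, with the gene lengths behind the deposited values. These lengths were not checked, and the order of the genes depends on them. Rps3 averaged 756 CPM with the C3 KO label and 757 CPM with the WT label, at 169 RPKM. Rplp1 averaged 297 CPM with either label, at 600 RPKM. The median was 20.3 RPKM for large-subunit members, 43.5 RPKM for small-subunit members and 7.88 RPKM over all genes in the table. The rows ran from 600 RPKM for Rplp1 to 1.89 RPKM for Rpl3l, the paralogue of striated muscle. The next lowest, Rpl23a (2.57), Rpl9 (2.78), Rps13 (3.19) and Rpl35a (3.54 RPKM), are core proteins of every ribosome. Rpl35a, mutated in a form of Diamond-Blackfan anaemia in people, had a log2 difference of 0.03 ± 0.13 (SE, edgeR adjusted p = 0.897), Rpl9 one of -0.07 ± 0.14 (SE, edgeR adjusted p = 0.781) and Rps13 one of -0.04 ± 0.20 (SE, edgeR adjusted p = 0.915).

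Rows of members with more near copies had lower median levels. A near copy was any other GENCODE M21 transcript that matched at least 80% of a member's coding sequence at 95% identity or more. Of 82 members searched, 75 had at least 1 near copy, the median was 5 and the most was 56, for Rpl21. The median level was 61.3 RPKM for the 7 members with no near copy, 42.1 RPKM for 32 members with 1 to 4, 20.4 RPKM for 26 members with 5 to 9 and 13.02 RPKM for 17 members with at least 10. This is a description over genes that share libraries, with wide overlap, since members with no near copy ran from 1.89 to 547 RPKM. It also rests on the unchecked gene lengths behind RPKM. The sources used here do not say how reads that fit several places were counted.

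**Figure D3:**
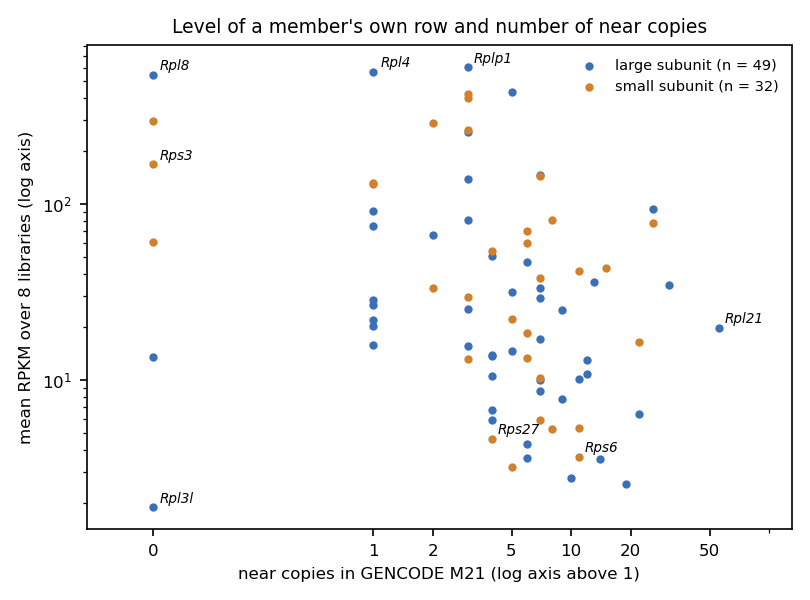
Each point is 1 ribosomal protein gene, placed by its number of near copies in the annotation and the mean RPKM of its own row over the 8 libraries, with log axes (the copy axis above 1). Genes with no near copy have a median of 61.3 RPKM and those with at least 10 a median of 13.02 RPKM, and Rpl21 has the most copies, 56.

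Reads were also listed on the copies. The count table held 146 rows of near copies, belonging to 69 members, and these rows carried 830268 reads. In the median member with a copy row, 40.0% of the reads of gene and copies together lay on the gene's own row, and for 36 of 69 it was under 50%. The lowest own share was that of Rps27, 0.833%, against its copy Gm9846, which is identical over all 252 coding bases. Gm9846 had 204, 180, 185 and 174 CPM with the C3 KO label and 187, 161, 180 and 151 CPM with the WT label, levels far above those of Rps27 itself. The own share was 2.58% for Rps29, 7.82% for Rpl37, 8.04% for Rps6 and 8.73% for Rpl9. The copy Gm13654 is identical to Rps6 over 747 coding bases, and Gm13826 differs from Rpl37 at 1 of 291. Values of the own rows of these genes are therefore uncertain. The own share was 39.7% for Rps3a, 59.2% for Rps15a and 66.5% for Rps7.

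In edgeR, 8.33% of all tested genes were higher and 5.98% lower. Of 140 copy rows tested, 5 were higher and 3 lower, with a median log2 fold change of 0.05. Those higher were Rpsa-ps10 (0.20), Rpl3-ps1 (0.16), Rpl36-ps2 (0.24), Gm4604 (0.33), a copy of Rpl36, and Gm13253 (0.50), a copy of Rps15a. Those lower were Gm9000 (-3.13), a copy of Rps3a, Gm11968 (-1.82), a copy of Rps15a, and Rps13-ps1. Rps13-ps1 had 1 read over the libraries labelled C3 KO and 511, 421, 59 and 364 reads in those labelled WT. Gm10159, another Rps13 copy, had 50.6, 39.1, 46.2 and 52.4 CPM with the C3 KO label. With the WT label it had 24.5, 23.4, 45.3 and 22.8 CPM, and it was not called (edgeR adjusted p = 0.133). Rps13 with the reads of its copies added stood at -0.03 ± 0.07 (SE, edgeR adjusted p = 0.823). These copy rows are named after their values were seen.

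The largest difference of the family thus had a counterpart of opposite sign. Gm9000, the Rps3a copy on chromosome 13, had 12.5, 10.3, 8.97 and 10.7 CPM with the C3 KO label and 98.1, 93.9, 95.5 and 84.3 CPM with the WT label. All 4 libraries labelled C3 KO were far lower, at a log2 difference of -3.13 ± 0.08 (SE, edgeR adjusted p = 2.75e-18). Gm10119, the Rps3a copy on chromosome 14, had a log2 difference of -0.03 ± 0.10 (SE, edgeR adjusted p = 0.862), and its groups overlapped. Rps3a lies on chromosome 3.

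The sequences below show how little separates these genes. Each line gives coding bases 201 to 260, counted from the first base of the Rps3a start codon, read from GENCODE M21 transcripts, with capitals at the positions that differ among them.
Rps3a: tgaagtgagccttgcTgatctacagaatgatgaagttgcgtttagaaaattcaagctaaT
Gm9000: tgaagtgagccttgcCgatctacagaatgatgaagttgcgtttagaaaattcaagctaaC
Gm10119: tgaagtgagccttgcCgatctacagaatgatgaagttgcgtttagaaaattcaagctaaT
Over 791 aligned bases Gm9000 carried 8 substitutions relative to Rps3a, among them T216C and T260C in this stretch, where the first base is that of Rps3a. Its longest stretch identical to Rps3a was 215 bases. Gm10119 carried 4 substitutions over 792 bases.

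With the reads of near copies added to each member, a setting added after the data were seen, 3 members were higher and 1 lower in edgeR, where 8.13% of all genes were called higher and 6.42% lower. Rps3a with its copies had 141, 117, 118 and 127 CPM with the C3 KO label and 178, 178, 174 and 152 CPM with the WT label. The groups were apart in the other direction, with a log2 difference of -0.44 ± 0.06 (SE, edgeR adjusted p = 7.29e-05). The direction of Rps3a thus depended on whether the copies were counted with it. Rps15a remained higher at 0.21 ± 0.06 (SE, edgeR adjusted p = 0.0385). Rpsa, the laminin receptor and a protein of the small subunit, was called higher as a sum at 0.15 ± 0.05 (SE, edgeR adjusted p = 0.031), whereas its own row stood at 0.06 ± 0.06 (SE, edgeR adjusted p = 0.572). The sum of Rps7 and its copy was not called, at 0.90 ± 0.27 (SE, edgeR adjusted p = 0.0824).

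Other values far from the family's median lay nearer to 0 in the sums. Rpl37 with its copy had 190, 164, 157 and 178 CPM with the C3 KO label and 176, 178, 181 and 154 CPM with the WT label, a log2 difference of 0.00 ± 0.06 (SE, edgeR adjusted p = 0.994). Rps27 with its copy stood at 0.13 ± 0.06 (SE, edgeR adjusted p = 0.176) and Rps6 with its copy at 0.02 ± 0.06 (SE, edgeR adjusted p = 0.844). The own rows of Rps27, Rps6 and Rpl37 held only 0.833%, 8.04% and 7.82% of the reads summed, so these sums nearly restate the copy rows. The spread of the family fell to 0.0869, compared with 0.113 for the own rows. These members were picked for extreme own rows, and sums hold more reads. Values nearer to 0 and a smaller spread were thus likely beforehand.

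**Figure D4:**
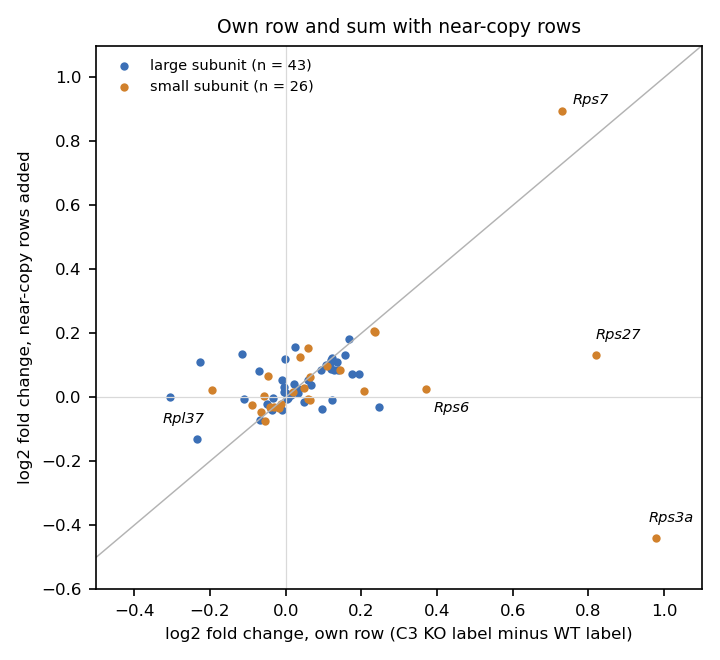
Each point is 1 ribosomal protein gene with a copy row in the count table, placed by the log2 fold change of its own row and of the sum with its near-copy rows, libraries labelled C3 KO minus those labelled WT. The line marks equal values. Rps3a moves from 0.98 on its own row to -0.44 as a sum. Rps27, Rps6 and Rpl37, whose sums are mostly copy reads, move towards 0, and Rps7 does not.

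The copy row of Rps7 and 2 of the 3 copy rows of Rps15a varied widely among the libraries labelled WT. Gm9493, the Rps7 copy, had 30.8, 22.9, 23.4 and 26.4 CPM with the C3 KO label and 6.51, 16.1, 16.4 and 3.92 CPM with the WT label. Replicates 1 and 4 were the low ones of the libraries labelled WT, as they were for Rps7 itself, and the copy was not called (log2 fold change 1.27 ± 0.44, SE, edgeR adjusted p = 0.117). Gm13253 had 38.8, 33.6, 33.6 and 33.6 CPM with the C3 KO label and 22.7, 24.9, 32.7 and 18.04 CPM with the WT label. Gm11968 had 1.88, 1.82, 1.52 and 1.48 CPM with the C3 KO label and 7.84, 6.99, 2.29 and 6.70 CPM with the WT label. In Gm13253 and Gm11968 the library labelled WT replicate 3 lay nearest to the libraries labelled C3 KO, as in the Rps13 copies Rps13-ps1 and Gm10159. That library also carried the Y-linked reads, and the part of its difference in these results was not tested. Gm14166, the most abundant of the 3 Rps15a copy rows, showed no such pattern. It had 57.3, 44.7, 41.9 and 46.7 CPM with the C3 KO label and 46.0, 43.4, 47.0 and 40.2 CPM with the WT label, and its groups overlapped (log2 fold change 0.11 ± 0.08, SE, edgeR adjusted p = 0.415).

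**Figure D5:**
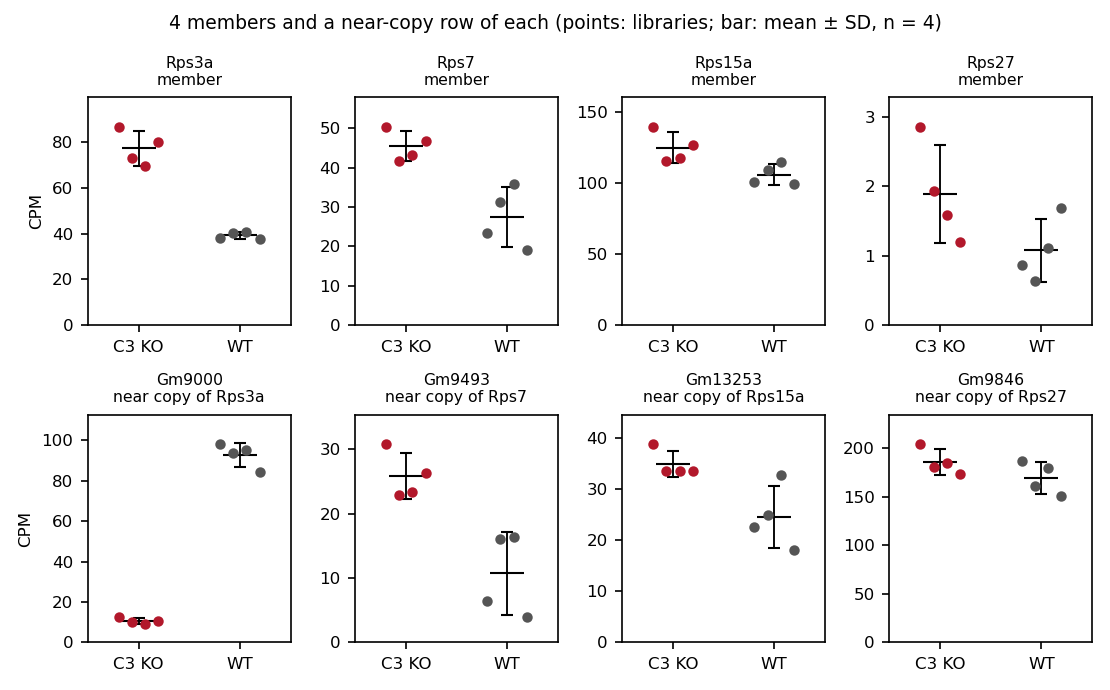
The upper row shows CPM of Rps3a, Rps7, Rps15a and Rps27 and the lower row CPM of a near copy of each, with 1 point per library, the mean and the SD (n = 4), libraries labelled C3 KO left and those labelled WT right. Rps3a is higher and Gm9000 lower in the libraries labelled C3 KO, while Rps7 and Gm9493 are both higher there, and Gm9846 lies between 151 and 204 CPM where Rps27 lies between 0.640 and 2.85 CPM.

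Paralogues were read beside their partners. Rpl22l1, whose splicing Rpl22 protein is known to repress, had a log2 difference of 0.10 ± 0.10 (SE, edgeR adjusted p = 0.577) and Rpl22 one of 0.01 ± 0.05 (SE, edgeR adjusted p = 0.889). Rpl3l averaged 1.89 RPKM and its partner Rpl3, near the catalytic centre, 29.2 RPKM. Their log2 fold changes were -0.13 ± 0.21 and -0.00 ± 0.08 (SE). Rps27l, a p53 target in several cell types, averaged 61.3 RPKM, above the 4.62 RPKM of the own row of Rps27, and had a log2 fold change of -0.06 ± 0.07 (SE). Rps4y2, an older symbol for Rps4l, had 40.5, 51.9, 45.0 and 55.3 CPM with the C3 KO label and 44.3, 38.5, 44.1 and 38.4 CPM with the WT label. It overlapped, at 0.22 ± 0.09 (SE, edgeR adjusted p = 0.0997), beside 0.11 ± 0.06 for Rps4x. Rpl36al and Rpl36a stood at -0.04 ± 0.08 and 0.16 ± 0.12, and Rpl7l1 and Rpl7 at -0.07 ± 0.07 and 0.01 ± 0.05 (SE). None of these paralogues or partners was called. Rps19bp1, a regulator of the deacetylase Sirt1, stood at 0.09 ± 0.08 (SE, edgeR adjusted p = 0.496).

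Members on the X chromosome and on chromosome 17, where C3 lies, were read separately. The 4 X-linked members had positive log2 fold changes, as did 52 of all 83 members and 8074 of 15850 tested genes. None of the 4 was called. They were Rps4x (0.11), Rpl10 (0.13), which joins the subunit late, Rpl39 (0.13), a protein of the exit tunnel, and Rpl36a (0.16). Sex-linked reads largely followed the labels, as given above, and the part of sex in these 4 values was not tested. Of the 8 members on chromosome 17, 0 were called in edgeR, beside 8.33% of all tested genes called higher and 5.98% lower. Rpl10a, of the mobile L1 stalk, had 65.9, 71.8, 56.7 and 72.1 CPM with the C3 KO label and 59.5, 63.4, 56.9 and 53.2 CPM with the WT label, a log2 difference of 0.19 ± 0.07 (SE, edgeR adjusted p = 0.0788). Rps10, marked by ubiquitin when ribosomes collide, stood at 0.21 ± 0.09 (SE, edgeR adjusted p = 0.122). Rps2 stood at 0.06, Rpl7l1 at -0.07, Rps18 at -0.06, Rps28 at -0.05, Rpl36 at -0.23 and Rpl3l at -0.13. Rpl10a and Rps10 passed an unadjusted p of 0.05, a threshold at which 15.4% of all tested genes were higher and 13.3% lower.

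Fau and Gnb2l1, ribosomal protein genes outside the symbol rule, were not called either. Fau, which encodes S30 fused to a ubiquitin-like protein, stood at 0.00 ± 0.13 (SE, edgeR adjusted p = 0.988) and Gnb2l1, the scaffold Rack1, at 0.02 ± 0.05 (SE, edgeR adjusted p = 0.81). Mitochondrial ribosomal protein genes serve the separate ribosome of that organelle. With pseudogenes left out, 1 of 75 was higher and 2 were lower, beside 8.33% and 5.98% of all tested genes. Their median was -0.03. Mrpl48 had 36.0, 33.0, 32.8 and 37.3 CPM with the C3 KO label and 24.1, 31.4, 30.7 and 24.0 CPM with the WT label, and rose by a log2 difference of 0.33 ± 0.09 (SE, edgeR adjusted p = 0.0143). Mrps35 fell by 0.26 on the log2 scale (edgeR adjusted p = 0.0188) and Mrps12 by 0.28 (edgeR adjusted p = 0.047), and the pseudogene Mrpl48-ps fell by 0.44 (edgeR adjusted p = 0.00221). Mrpl48 was not called without C3 KO replicate 4 or WT replicate 4 (edgeR adjusted p up to 0.0655). Mrps12 was not called under upper quartile scaling (edgeR adjusted p = 0.0506), nor without C3 KO replicates 2, 3 or 4 or WT replicates 2 or 3 in turn (up to 0.137).

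Few of the genes that build the ribosome or control TOP mRNAs were called. Among all tested genes, edgeR called 8.33% higher and 5.98% lower. Of 24 elongation and initiation factors and other TOP genes, 0 were called in edgeR, with a median of -0.00. Of 55 ribosome assembly factors, 1 was higher and 1 lower, with a median of -0.06. Nop56, a core protein of the box C/D particles that methylate ribosomal RNA, rose by a log2 difference of 0.21 ± 0.05 (SE, edgeR adjusted p = 0.00982), and the nucleolar protein Nop16 fell by 0.21 (edgeR adjusted p = 0.0332). Nop16 was not called when any library but WT replicate 3 was left out (edgeR adjusted p up to 0.0663). Of 13 RNA polymerase I genes, which transcribe ribosomal RNA, 0 were called and the median was -0.08. Among 21 mTORC1 and Myc pathway genes, 0 were higher and 2 lower, with a median of -0.07. Those lower were Mycn, a transcription factor of the Myc family, by 0.19 (edgeR adjusted p = 0.0312), and Max, the partner of Myc proteins, by 0.21 (edgeR adjusted p = 0.00574). Mycn was not called without C3 KO replicates 1, 3 or 4 or WT replicate 4 in turn (edgeR adjusted p up to 0.114). Another list of 15 genes held p53 targets and the p53 gene Trp53 itself, with a median of 0.04. In it the cell-cycle inhibitor Cdkn1a rose by 0.25 ± 0.08 (SE, edgeR adjusted p = 0.0491) and Trp53inp1 fell by 0.36 (edgeR adjusted p = 0.000407). Cdkn1a was not called under RLE scaling (edgeR adjusted p = 0.0517), and leaving out C3 KO replicates 1, 3 or 4 or WT replicates 2, 3 or 4 in turn ended its call too (edgeR adjusted p up to 0.174). Of 14 genes of ribosome rescue, 0 were called, with a median of -0.06. Among 52 subunits of complex I and cytochrome oxidase, another set of small abundant proteins, 1 was higher and 2 lower, with a median of 0.02.

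Markers of cell types moved between the labels beside these values, where edgeR called 8.33% of all tested genes higher and 5.98% lower. Of 17 markers of the retinal pigment epithelium, 12 were higher and 0 lower in edgeR, with a summed level of 479 to 508 CPM with the C3 KO label and 336 to 362 CPM with the WT label. Of 12 progenitor markers, 2 were higher and 6 lower, with 2105 to 2455 CPM with the C3 KO label and 2135 to 2572 CPM with the WT label. Of 5 red blood cell markers tested, 5 were lower, with 18.1 to 23.2 CPM with the C3 KO label and 28.5 to 51.2 CPM with the WT label. Of 9 ganglion and amacrine cell markers, 7 were higher, with 2008 to 2287 CPM with the C3 KO label and 1589 to 2046 CPM with the WT label. The part of these cell types in the values of ribosomal protein genes was not tested.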

How the data were processed

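Read counts per gene were deposited by the authors without normalization, as a table of 16109 genes, and a second deposited table holds the authors' log2 RPKM. STAR, HTSeq and the builds mm9 and NCBIM37 are named in the submitters' processing notes, without versions or roles. Whether strand was used in counting is not stated there, so overlapping and antisense genes cannot be told apart. The log2 values matched counts with 2 reads added, to within 0.154. Mean RPKM described levels.

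In R 4.3.3, edgeR 4.0.16 set the 4 C3 KO libraries against the 4 WT libraries, by label (expression filter, TMM scaling, robust quasi-likelihood test, Benjamini-Hochberg adjustment over 15850 genes). The procedure was tested on simulated data. Coding sequences of 82 members were matched to GENCODE M21 transcripts with BLAST+ 2.17.0 (at least 95% identity over 80%, transcripts up to 3 coding lengths), and each copy row was added to its member. Of the members, 81 matched a current GRCm38 symbol and 2 an older one. Start windows came from RefSeq's GRCm38.p6 table, and no coordinates of the files' own build are used. 

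Named genes were C3, members called, the 5 highest and 5 lowest by fold change and by RPKM, departing, X-linked, chromosome 17 and paralogous members, and up to 4 genes of each other list. Some of these genes are not reported here, while counts and medians include them. The members and lists were chosen with earlier results of these data known. Alternatives were other scalings and filters, DESeq2 1.42.0, limma-voom 3.58.1, non-robust dispersion, limma on log2(RPKM + 1), a replicate block, a Y-linked covariate, and leaving out each library.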

Additional observations from a re-analysis of the deposited data

Results flagged for a closer look

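In 84 groups of 4 libraries, 1 library stood far from the other 3 in 3 groups, and chance alone gives about 1 in 20. Rpl3l was at 3.61 CPM in 1 library labelled WT, where the other 3 lay between 2.82 and 2.87 CPM. Rpl32 was at 198 CPM in 1 library labelled WT, where the other 3 lay between 219 and 222 CPM. Rps28 was at 12.6 CPM in 1 library labelled WT, where the other 3 lay between 15.7 and 16.4 CPM. For Rpl32 and Rps28 this was replicate 4, in which most of the family was low, and for Rpl3l it was replicate 2.

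Some pseudogene rows outside the symbol rule also differed between the labels, where 8.33% of all tested genes were called higher and 5.98% lower. Rpl3-ps1 had a log2 fold change of 0.162 and Rpl36-ps2 one of 0.245, both higher in the libraries labelled C3 KO in edgeR (adjusted p = 0.0361 and 0.0169). Rps13-ps1, whose reads are given above, was lower there at -9.86 (edgeR adjusted p = 0.00876).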

How the results depend on the processing

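The medians of the large and small subunits moved by less than the spread between replicates under every alternative run. They ran from -0.01 to 0.05 and from -0.01 to 0.09. Members called higher numbered 4 as reported, 1 with the Y-linked covariate and 2 to 4 when 1 library was left out, the 2 being without C3 KO replicate 4. The share of all genes called higher was 8.33% as reported, 2.2% with that covariate, 4.78% to 9.51% when 1 library was left out and 4.78% without C3 KO replicate 4. Members called lower numbered 0 as reported. They numbered 0 to 1 when 1 library was left out and 1 with no expression filter, in DESeq2 and in limma on log2(RPKM + 1), which was Rpl37. It was also 1 with near-copy rows added at 95% or 90% identity, where it was Rps3a, at -0.44 in both. The share of all genes called lower was 5.98% as reported and 3.41% to 6.44% when 1 library was left out. It was 6.55% with no expression filter, 6.95% in DESeq2 and 3.53% in limma on log2(RPKM + 1). With near-copy rows added at 95% or 90% identity it was 6.42% or 6.43%. Rps3a stayed higher when 1 library was left out (adjusted p at most 6.22e-08). With the replicate number as a block, 3 members were higher and 0 lower, beside 8.93% and 6.21% of all genes. Rps7 was then not called (edgeR adjusted p = 0.115), at a log2 fold change of 0.76, compared with 0.73 as reported. Same-numbered libraries did not deviate together (correlations -0.06, 0.09, 0.00 and -0.06). The own row of Rps27 held 219 reads over 8 libraries, which limits its precision, while the copy identical to it held 26087. With the Y-linked covariate, each called gene named in the text from the other gene lists lost its call. That covariate nearly followed the labels apart from WT replicate 3, so a call lost under it decides nothing about the label difference. Cdkn1a lost its call in 6 of 8 fits that left out a library and in 10 of 13 other alternatives.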
